A study of Drosophila melanogaster with 2 samples.

Results

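The genes described here encode subunits of Mediator, TBP-associated factors (TAFs), and the transcription factors whose symbols start with TfII. The TfII genes encode general initiation factors except TfIIS, an elongation factor. All the genes were taken by name, as every protein-coding gene of the Ensembl annotation whose symbol starts with MED or Taf and a digit, or with TfII. This set of names was chosen with earlier results of these data known. The rule gave 49 of 13945 protein-coding genes, made up of 25 MED, 15 Taf and 9 TfII genes. Binding was measured by chromatin immunoprecipitation and sequencing (ChIP-seq), with an antibody to GFP, in whole Drosophila melanogaster at the prepupal stage (1 day). The strain, named Gug-GFP in the labels, expresses the corepressor Gug as a fusion to eGFP from an insertion that targets Gug. Both libraries, labelled biological replicates 1 and 2, belong to this single group, so no condition was compared with another. The sex of the animals was not collected, per the labels. In whole animals the tissues that gave a peak cannot be told apart.

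RNA polymerase II needs general transcription factors to start at a promoter. TFIID, built from TBP and the TAFs, recognises the core promoter, TFIIA steadies TBP on the DNA, TFIIB and TFIIF bring in the polymerase, and TFIIE helps TFIIH to open the DNA. Mediator is a large complex with head, middle, tail and kinase modules that relays signals from DNA-bound regulators to the polymerase. Gug, also known as Atrophin, is recruited to DNA by other proteins and is known for repression with nuclear receptors and histone deacetylases. In these data the genes are seen only as places where Gug may or may not bind, and neither their RNA nor their proteins were measured.

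A gene was counted when a summit, the point of highest signal in a peak, was 1000 bp or less from a transcript start of that gene. Of the 49 genes, 10 had such a summit, or 20.4% (exact 95% interval 10.2 to 34.3, counting error only). Over all protein-coding genes the share was 18.9%, so the overall frequency at these genes was near the background. The 10 were MED27, MED30, MED17, MED31, MED7, MED4, Taf5, Taf2, Taf4 and TfIIA-L. Each had exactly 1 summit. All 10 summits lay 27 to 190 bp upstream of the start of the member gene, and 47.3% of all coding genes with a summit had their nearest at most 200 bp upstream. Of the 10, 8 lay at a promoter shared with a second coding gene. The share was 34.5% of all summits near a coding start and 59.0% of those at most 200 bp upstream. These shares count each summit once, whereas the 10 were reached by gene, so a shared summit could be picked through either gene. Replicates 1 and 2 each had a thresholded peak over all 10, against 53.8% of all summits near a coding start.

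The promoters of the 6 genes with the highest signal outside 1 chromosome arm that is not shown are printed here, because they show how close the summit lies to the start. Each runs 5′ to 3′ on the coding strand of the named gene, from 250 bp before its transcript start to 50 bp from the start onward, so that the start is base 251 of 300. Capitals mark the 21 bases centred on the summit. Sequence is from the RefSeq genome of the dm6 assembly. The windows are chr3R:5654889-5655188 on the plus strand for MED27, chr3L:9888634-9888933 on the minus strand for Taf2 and chr3L:654040-654339 on the minus strand for MED30. For MED17 the window is chr3R:18188822-18189121, for Taf4 chr3L:16113540-16113839 and for TfIIA-L chr3R:27253180-27253479, all on the plus strand.
MED27 promoter: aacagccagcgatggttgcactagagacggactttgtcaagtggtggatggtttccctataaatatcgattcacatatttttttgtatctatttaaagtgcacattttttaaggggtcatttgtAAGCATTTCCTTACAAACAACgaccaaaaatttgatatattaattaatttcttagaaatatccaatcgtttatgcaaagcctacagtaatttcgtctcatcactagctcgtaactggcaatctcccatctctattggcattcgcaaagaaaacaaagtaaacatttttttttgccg
Taf2 promoter: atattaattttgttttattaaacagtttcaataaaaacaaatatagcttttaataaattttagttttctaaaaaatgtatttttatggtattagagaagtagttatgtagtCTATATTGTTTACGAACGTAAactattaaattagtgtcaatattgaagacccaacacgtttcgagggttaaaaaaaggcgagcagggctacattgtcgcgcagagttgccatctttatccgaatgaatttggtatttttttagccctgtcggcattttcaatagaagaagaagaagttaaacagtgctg
MED30 promoter: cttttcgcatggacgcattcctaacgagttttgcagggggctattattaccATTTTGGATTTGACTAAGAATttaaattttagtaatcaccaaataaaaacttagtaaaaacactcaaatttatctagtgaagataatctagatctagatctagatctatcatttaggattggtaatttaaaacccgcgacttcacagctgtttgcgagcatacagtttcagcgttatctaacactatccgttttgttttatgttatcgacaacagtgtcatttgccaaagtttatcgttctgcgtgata
MED17 promoter: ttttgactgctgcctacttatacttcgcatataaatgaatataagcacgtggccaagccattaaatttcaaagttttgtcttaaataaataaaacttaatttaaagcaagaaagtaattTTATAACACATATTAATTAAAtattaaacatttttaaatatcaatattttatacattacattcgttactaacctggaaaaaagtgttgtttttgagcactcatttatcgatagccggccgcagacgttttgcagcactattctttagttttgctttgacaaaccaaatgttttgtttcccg
Taf4 promoter: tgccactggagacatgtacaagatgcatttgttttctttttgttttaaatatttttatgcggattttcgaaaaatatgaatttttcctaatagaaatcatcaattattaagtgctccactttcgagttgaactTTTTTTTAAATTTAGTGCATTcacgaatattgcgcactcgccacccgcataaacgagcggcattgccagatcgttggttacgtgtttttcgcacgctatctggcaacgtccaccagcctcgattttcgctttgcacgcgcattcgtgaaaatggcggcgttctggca
TfIIA-L promoter: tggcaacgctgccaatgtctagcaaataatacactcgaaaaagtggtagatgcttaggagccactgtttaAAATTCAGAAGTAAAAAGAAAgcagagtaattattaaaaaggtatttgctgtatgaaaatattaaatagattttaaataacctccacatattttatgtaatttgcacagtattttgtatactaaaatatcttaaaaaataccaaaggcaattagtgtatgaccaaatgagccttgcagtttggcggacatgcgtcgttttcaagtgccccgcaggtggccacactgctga

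The summit fell on base 135 in MED27, 122 in Taf2, 62 in MED30, 130 in MED17, 144 in Taf4 and 81 in TfIIA-L. In these 6 promoters it was never at the start itself. The GC content of the 300 bp was 34.7% for MED27, 30.0% for Taf2, 34.3% for MED30, 29.0% for MED17, 40.7% for Taf4 and 35.3% for TfIIA-L.

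**Figure D1:**
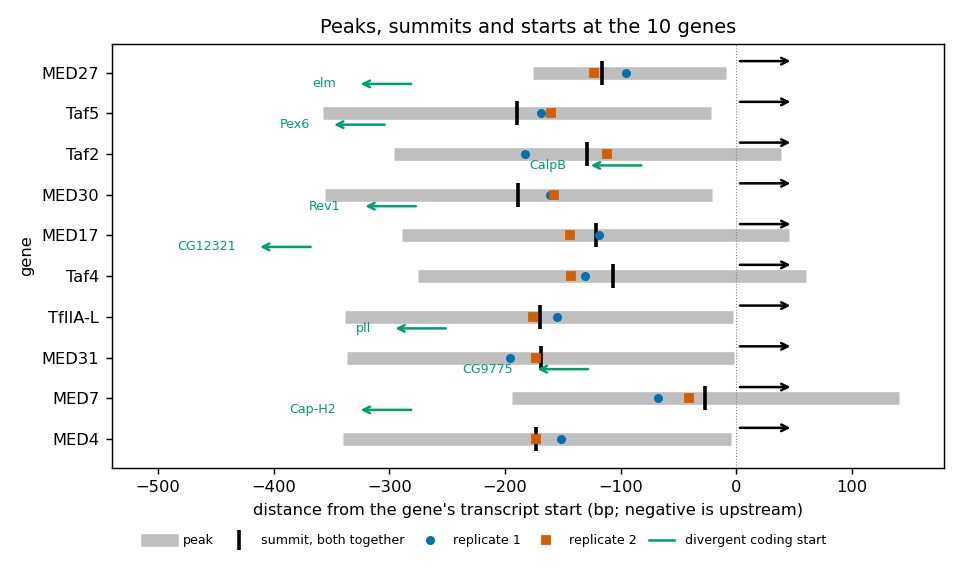
Peaks (grey bars) and summits (black lines) at the 10 genes, by distance in bp from the gene's transcript start (0, black arrow), with the summits of replicate 1 (circles), those of replicate 2 (squares) and the starts of divergent coding genes (green arrows). All 10 summits lie upstream of the start, and 8 of the 10 genes have a divergent coding start within 365 bp.

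Mediator genes had a summit in 6 of 25 cases (24.0%, exact interval 9.36 to 45.1). By module, the counts were 2 of 9 genes of the head, 3 of 9 of the middle and 1 of 7 of the tail. With so few genes, the intervals of the modules overlap widely (2.81 to 60.0, 7.49 to 70.1 and 0.361 to 57.9%).

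MED27, a subunit of the tail, had the highest signal of all 49 genes, 288 with both replicates together, 135 in replicate 1 and 151 in replicate 2. The signal is the value the authors deposited for the peak and has no stated unit. The summit, at chr3R 5655023, lay 116 bp upstream of the start of MED27 and 162 bp upstream of the start of elm on the other strand. It ranked 666 among 5750 summits, and the peak was 168 bp wide, where the other 9 member peaks were 336 bp wide. The summit of MED27 lay between starts that face away from each other, with 278 bp between them. Those of Taf5, MED30, MED17, TfIIA-L and MED7 lay between such starts too.

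In the head, MED30 had a signal of 213, with 102 in replicate 1 and 115 in replicate 2, and a summit at chr3L 654278. It lay 189 bp upstream of MED30 and 85 bp upstream of Rev1, which encodes a translesion DNA polymerase. MED17, the scaffold of the head, had a signal of 206, with 110 in replicate 1 and 90.9 in replicate 2. Its summit, at chr3R 18188951, lay 121 bp upstream of MED17 and 244 bp upstream of CG12321. MED17 was the only gene of the 10 whose value was higher in the list of replicate 1.

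In the middle module the values were lower. MED31 had a signal of 155, with 53.8 in replicate 1 and 102 in replicate 2. Its summit, at chr3R 4641794, lay 169 bp upstream of the start at 4641963, which MED31 shares with slx1, a gene for a DNA nuclease subunit. MED31 and slx1 have the same annotated start, so this summit cannot be assigned to either. The same summit was 44 bp downstream of the start of CG9775 and lay in an intron of that gene.

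MED7 had a signal of 147, with 58.9 in replicate 1 and 85.0 in replicate 2. Its summit was the closest of the 10 to a start, 27 bp upstream at chr3R 10761059, and lay 251 bp upstream of Cap-H2, a condensin II subunit gene. MED4 had the lowest signal of the 10, 142, with 66.6 in replicate 1 and 76.2 in replicate 2. Its summit, at chr3L 7250700, lay 173 bp upstream of MED4 and 60 bp inside a noncoding antisense RNA (asRNA:CR43470) that starts 113 bp upstream of MED4 on the other strand. MED4 had no second coding gene within 1000 bp of its summit, but the summit still lay beside a divergent start.

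**Figure D2:**
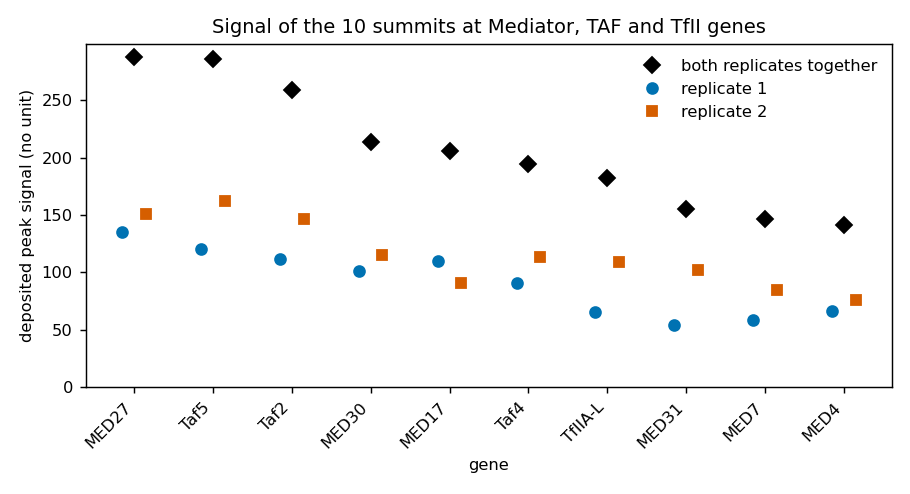
Deposited signal (vertical axis, no unit) of the 10 member summits with both replicates together (diamonds), and of the matching peak in replicate 1 (circles) and replicate 2 (squares). Values run from 142 to 288 together, and 9 of the 10 genes have the higher value in replicate 2.

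Among TAF genes, 3 of 15 had a summit (20.0%, exact interval 4.33 to 48.1). Taf5, a WD-repeat subunit of the TFIID core, had a signal of 286, with 120 in replicate 1 and 163 in replicate 2. Its summit lay at chr2R 10879863, 190 bp upstream of Taf5 and 111 bp upstream of Pex6, an ATPase gene of peroxisome biogenesis. This placed Taf5 level with MED27, at rank 671.

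Taf2, a TFIID subunit that contacts core promoter DNA, had a signal of 259, with 112 in replicate 1 and 147 in replicate 2. Its summit at chr3L 9888812 was 129 bp upstream of Taf2 and 50 bp downstream of the start of CalpB, a calpain protease gene, in the 5′ UTR of CalpB. The starts of Taf2 and CalpB are 79 bp apart, the closest of the 8 pairs. The peaks of the replicates had summits 71 bp apart here, the widest gap among the 10 genes.

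Taf4, a histone-fold subunit of TFIID, had a signal of 195, with 90.8 in replicate 1 and 114 in replicate 2. It has 3 annotated starts, at chr3L 16113212, 16113790 and 16114308, and the summit at 16113683 lay 107 bp upstream of the middle start. Relative to the upstream start the summit is inside the gene, in an intron. Taf4 was the only gene of the 10 with no start of another gene within 1000 bp of its summit.

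TfIIA-L, which encodes the precursor of the large TFIIA subunits, was the only TfII gene of 9 with a summit (11.1%, exact interval 0.281 to 48.2). Its signal was 182, with 65.2 in replicate 1 and 109 in replicate 2. The summit, at chr3R 27253260, lay 170 bp upstream of the start at 27253430 and 78 bp upstream of pll, the gene of the Pelle kinase of Toll signalling. TfIIA-L has a second start at 27251112, and the summit is in an intron of that longer transcript.

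The 10 summits stood in the upper part of the list. Their median signal was 200.0 (142 to 288), against 118 for all 2428 summits within 1000 bp of a coding start and 112 for all 5750 summits. All 10 were above the latter median and 6 were above its upper quartile of 185, but only 3 (MED27, Taf5 and Taf2) were among the 1000 strongest. The strongest summit near a coding start had 2182, so none of the 49 genes was among the extreme peaks. Over the 1307 summits near a coding start that were also in the lists of both replicates, the median was 197, close to that of the 10. No test was made of these differences.

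Support in the replicates was complete. The summits of all 10 were covered by a thresholded peak of replicate 1 and of replicate 2, where 53.8% of all summits near a coding start were. Among the 1047 summits at most 200 bp upstream of a coding start, a set defined after the values had been seen, the share was 57.3%. Counted by gene, the list of each replicate alone gave the same 10 genes and no other, while 62.8% of all coding genes with a summit kept it in both lists. Replicate summits of the 10 genes lay 3 to 71 bp apart (median 22). The median signal of the 10 was 96.2 in replicate 1 and 111 in replicate 2, and the medians of the full lists, 69.2 and 82.1, differed in the same direction. The lists of the replicates were made separately and the signal has no unit, so a higher value in replicate 2 was not tested and is a description of these lists.

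The place of the summit relative to the start was narrow. All 10 were 0 to 200 bp upstream (median 149 bp), as were 47.3% of the nearest summits of all coding genes with a summit, whose median was 142 bp upstream. The median position of the 10 was thus close to that of all coding genes with a summit, whose quartiles were 49.3 and 251 bp upstream. The spread of the 10 was narrower, and none of them lay elsewhere in the 1000 bp on either side. Of the 10, 5 summits lay in no annotated gene, and the others lay in the 5′ UTR of CalpB, in an intron of CG9775, Taf4 or TfIIA-L, or in the antisense RNA beside MED4.

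**Figure D3:**
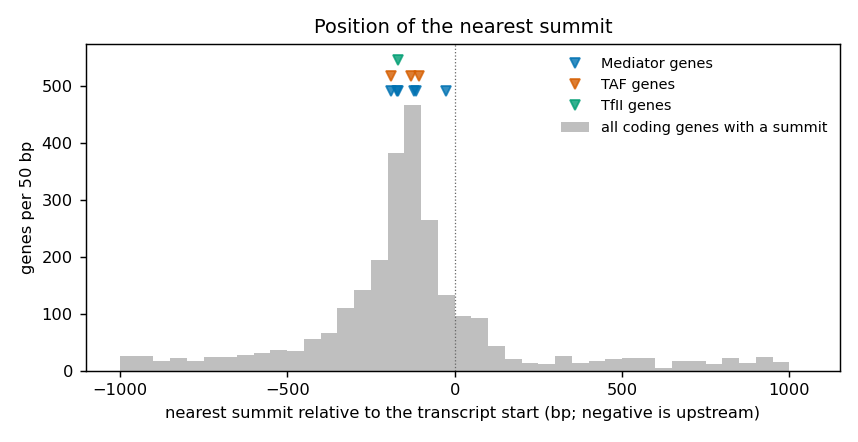
Genes per 50 bp (vertical axis) by the position of their nearest summit relative to the transcript start (horizontal axis, bp, negative is upstream) for the 2638 coding genes with a summit (grey bars), and the 10 member genes as triangles coloured by family. The triangles lie 27 to 190 bp upstream, 9 of them between 107 and 190 bp, where the highest grey bars are.

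Shared promoters were frequent. For 8 of the 10 summits a second coding gene had a start within 1000 bp, and in all 8 that gene was head to head with the member, on the other strand and pointing away. The share over all summits near a coding start was 34.5%, and over those at most 200 bp upstream of a start it was 59.0%. The starts of the 8 pairs were 79 to 365 bp apart (median 276). A summit in such a place is as much a summit of elm, Pex6, CalpB, Rev1, CG12321, pll, CG9775 or Cap-H2 as of the member gene beside it.

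The arrangement was a feature of the whole set, with or without a summit. A divergent coding start within 1000 bp upstream was present for 36 of the 49 genes, and for 36.2% of all coding genes. Of these 36, 9 had a summit (25.0%, exact interval 12.1 to 42.2), against 30.3% of all coding genes with a divergent start. Of the 13 without a divergent start, MED4 alone had a summit (7.69%, exact interval 0.195 to 36.0), against 12.4% of all such coding genes. In both classes the share at the 49 genes was thus a little below that of other genes of the same arrangement, within its interval. Taf4 counts among the 36 through Zn72D, 586 bp from its upstream start. The summit of Taf4 is just over 1000 bp from that start of Zn72D, so it was not counted as shared.

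**Figure D4:**
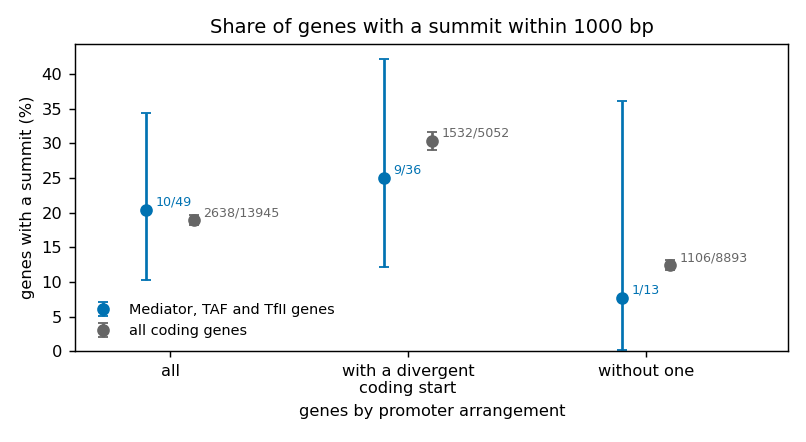
Share of genes with a summit within 1000 bp (vertical axis, %) for the 49 member genes (blue) and for all coding genes (grey), split by whether a divergent coding start lies within 1000 bp upstream; bars are exact 95% intervals and labels are counts. The 9 of 36 members with a divergent start and the 1 of 13 without have wide intervals that hold the grey values of 30.3% and 12.4%.

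No summit was near a start of the other 39 genes. In the head these were MED6, MED8, MED11, MED18, MED20, MED22 and MED28, in the middle MED1, MED9, MED10, MED19, MED21 and MED26, and in the tail MED14, MED15, MED16, MED23, MED24 and MED25. The TAF genes were Taf1, Taf3, Taf6, Taf7, Taf8, Taf9, Taf10, Taf10b, Taf11, Taf12, Taf12L and Taf13. The TfII genes were TfIIA-S, TfIIA-S-2, TfIIB, TfIIEalpha, TfIIEbeta, TfIIFalpha, TfIIFbeta and TfIIS. Taf1, the largest TFIID subunit and its scaffold, was therefore without a summit, with the nearest 116240 bp away, and so were both genes of TFIIE and both of TFIIF.

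The 1000 bp limit separated the genes cleanly on the near side and less so on the far side. The farthest counted summit was 190 bp from its start. The nearest uncounted one was 1068 bp from MED20 (signal 70.7), and it lay 156 bp from a start of poe. For Taf12 it was 1447 bp away with a signal of 443, and lay 127 bp from CG18476. Taf10 and Taf10b, neighbouring genes whose divergent starts are 45 bp apart, had the same nearest summit, 1891 and 1846 bp away with a signal of 228, at 234 bp from aph-1.

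For 6 more genes the nearest summit was within 3000 bp. It lay 1937 bp from TfIIEalpha (signal 81.4, 5 bp from Sugb), 2367 bp from MED15 (76.9, 909 bp from CG4297) and 2446 bp from Taf13 (677, 32 bp from Pyroxd1). It lay 2655 bp from MED6 (327, 97 bp from CG9471), 2676 bp from TfIIB (62.5, 167 bp from CG5188) and 2704 bp from Taf9 (427, 84 bp from Ucp4A). In all 10 of these cases the summit was closer to a start of another coding gene. For 14 of the 39 genes the nearest summit was over 10000 bp away, up to 2236946 bp for MED21. With the whole gene and 2000 bp before it taken in, Taf10 was the only one of the 39 to gain a summit.

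**Figure D5:**
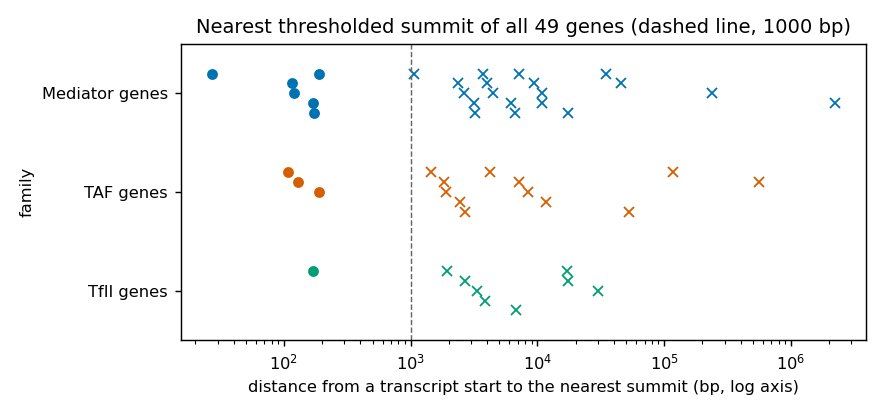
Distance from a transcript start to the nearest thresholded summit (horizontal axis, bp, log scale) for all 49 genes by family; circles are the 10 genes within 1000 bp (dashed line) and crosses the other 39. No gene lies between 190 and 1068 bp.

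Peaks below the threshold were present near some of these genes. Of the 39, 23 had a ranked peak within 1000 bp (59.0%), against 60.0% of all coding genes without a thresholded summit. For 22 of the 23 the strongest such peak had a signal of 20.8 to 62.3 (median 39.0), all below the lowest of the 10 genes, 142. The share with a ranked peak was thus near the background, and for all but 1 gene the strongest was 62.3 or less. Signals in the thresholded list of both replicates together go down to 2.09.

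MED15, a tail subunit that binds activators, was the exception. It had a ranked peak at chr2L 472447, 566 bp upstream of its start, with a signal of 282, and 122 in replicate 1 and 168 in replicate 2. The −log10 of the global irreproducible discovery rate (IDR, a measure of how reproducibly a peak ranks) was 5 in the list of both replicates together and 5 in each replicate, past the value of 2 that the thresholded lists correspond to. The peak was nevertheless missing from all 4 thresholded lists. With it, MED15 would have been the third highest of 11 genes. The peak lies between the divergent starts of MED15 and CG4297, 813 bp apart, and is closer to that of CG4297. On the chromosome arms, 102 of 5852 ranked peaks past that value were left out of the thresholded list, and 19 of them had a signal at least as high as that near MED15. The README files name a further file among the inputs of the thresholded lists that the ranked lists lack, and its part in this was not tested. Of the other genes with only a ranked peak, the strongest came closest to the value of 2 at TfIIS (1.83), TfIIA-S (1.78) and MED16 (1.49).

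The conservative set added 2 genes and lost none. In that set MED16 gained a summit 105 bp upstream of its start with a signal of 41.3, and TfIIB gained 1 lying 370 bp upstream with a signal of 73.4. Both are also at divergent promoters, with CG11170 and Bug22. Neither was in the thresholded list of a replicate. Taf2 gained a second summit there, 331 bp upstream, with a signal of 80.3.

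The DNA at the 10 summits was poor in G and C. In 201 bp around each summit the GC content was 21.9 to 37.3% (median 30.8), against a median of 35.3% for all summits near a coding start and 33.8% for those at most 200 bp upstream of a start. MED17 had the lowest value and Taf4 the highest.

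Core promoter and other short motifs were searched on both strands. The core promoter motifs were TATCGATA (DRE), GGTCACACT (motif 1) and TATAAA (the TATA box). GAGAG is bound by the GAGA factor of this fly. CAGCTG is an E box, which helix-loop-helix proteins bind. AAGTCA was searched as a hexamer of nuclear receptors. The other hexamer of these receptors searched was AGGTCA. The last 5 letters of AGGTCA are the first 5 of motif 1, so these matches can overlap. Each promoter or window counted once for a motif. None of the 10 windows of 201 bp held TATCGATA or GGTCACACT or AAGTCA, against 2.59%, 1.07% and 8.48% of windows at all summits near a coding start. TATAAA was in 4 of the 10 (35.5% of all windows). GAGAG was in 1 (24.4%), CAGCTG in 1 (9.27%) and AGGTCA in 1 (3.21%). With 10 windows, a single match already makes 10%, and no difference was tested.

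In the 300 bp promoters GGTCACACT was in 1 of 10 promoters with a summit, that of Taf5, and in 10 of 39 without (25.6%), against 6.04% of all coding promoters. The 10 were those of MED8, MED10, MED11, MED15, MED19, MED20, MED22, MED23, MED24 and Taf1. TATCGATA was in 2 of 10, those of MED17 and MED7, and in 6 of 39 (15.4%), against 9.36% of all. In the MED17 promoter printed above it takes bases 224 to 231, just before the start, while the summit is at base 130.

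The remaining motifs were in 0 to 3 of the 10 promoters with a summit. TATAAA was in 3 of 10 and 18 of 39 (45.8% of all promoters). GAGAG was in 1 of 10 and 7 of 39 (29.7% of all), and CAGCTG in 1 and 6 (17.7%). AAGTCA was in 0 and 10 (16.2%), and AGGTCA in 1 and 3 (5.88%). In the printed MED27 promoter TATAAA takes bases 58 to 63, well upstream of the usual place of a TATA box. The printed MED17 promoter holds it at bases 30 to 35 and, on the opposite strand, at 119 to 124 and 167 to 172. The match at 119 to 124 reaches into the capitals around the summit. A match describes these letters in this window and was not tested as a binding site.

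Other genes of the same machinery, listed with earlier results of these data known, were counted by the same rule. Of 63 genes under other symbols, 24 had a summit (38.1%), against 20.4% of the 49 and 18.9% of all coding genes. The 63 were not split by divergent start, and no interval was made for them. Over all coding genes the share was 30.3% with a divergent start and 12.4% without. RNA polymerase II subunits had 6 of 12, subunits of the coactivator SAGA 7 of 13, pausing and elongation factors 5 of 16 and TFIIH 3 of 10. The kinase module of Mediator had 1 of 4 (skd), the 1 tail gene under another symbol (ix) had 1, TBP and its relatives had 1 of 3, and the testis TAFs had 0 of 4.

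The highest signals among these 63 genes were partly well above those of the 49. Ssl1, a TFIIH subunit gene, had 1236 at a summit shared with Chro, and Gcn5, the acetyltransferase of SAGA, had 462 at one shared with ver. TH1, a NELF subunit gene, had 369 (shared with mei-41), Polr2H 281 (shared with CG11247), Polr2B 245 (shared with 140up) and Trf2, a TBP relative, 228 (shared with lawc). These 6, picked for their signal, were all in the lists of both replicates and near a second coding gene, as at most of the 10. The summit of Trf2 lay downstream of its start, unlike those of the 10. Support was less complete over all 24 genes with a summit. Those of ix, Polr2I, Ada3, Spt3 and Spt20 were in the list of neither replicate, and others were in that of a single replicate. The count of the 63 genes was 15 (23.8%) with replicate 1 alone, 17 (27.0%) with replicate 2 alone and 14 (22.2%) at an IDR of 0.001 or less. The share of all coding genes fell too, from 18.9% to 14.3%, 14.9% and 14.2%. The count of the 49 was 10 (20.4%) each time.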

How the data were processed

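ChIP-seq peak lists from 2 biological replicates of Gug-GFP prepupae were used. Per the deposited README files and the labels, coordinates are on dm6, the lists were selected by IDR, and every list drew on a file that also made the tracks of fold change over control, read here as the control alignment. The sources used here give no aligner, peak caller or read depth. Each peak carries a signal that the authors deposited with no stated unit, and this served only for description and ranking inside 1 list. The score used from the ranked list the authors deposited is the −log10 of the global IDR of a peak.

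The thresholded list of both replicates together was the main one. Summits on the 6 chromosome arms were kept (5750 of 5753), and the lists of replicates 1 and 2 alone held 3826 and 3999 on the arms. Gene starts were those of Ensembl release 115. A summit was matched to a ranked peak of a replicate with its summit at most 100 bp away, and supported by a replicate when a thresholded peak of it covered the summit. Intervals are exact binomial (95%) and cover counting error only. There was 1 group and no test across genes was made. The replicates are labelled biological, and nothing further is said of their source. Genes named were every member, the coding genes that share a summit with them, and up to 6 listed genes with the highest signal. For motifs, each gene had 1 promoter, at its 5′ start or, for the 10 genes, at the start nearest the summit. Of 68 listed names, 59 matched a symbol and 6 an older symbol, 3 matched none, and 2 were members already. The members and lists were chosen with earlier results of these data known. The assignment of summits to starts was tested on simulated data, and 200 of 200 planted summits were found at each distance tried. All these distances were within the 1000 bp limit, and no summit was planted beyond it. Python 3.11.15, pandas 2.3.3 and scipy 1.17.1 were used.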

Additional observations from a re-analysis of the deposited data

How the results depend on the processing

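The 10 genes with a summit were the same with each replicate alone (10 and 10 genes), at an IDR of 0.001 or less, within 500 bp of a start, and with protein-coding transcripts only. The 10 were 20.4% of the 49 each time. The share of all coding genes was 14.3% with replicate 1 alone, 14.9% with replicate 2 alone and 14.2% at that IDR. It was 15.8% within 500 bp and 18.9% with protein-coding transcripts only. The conservative set gave 12 genes (24.5%, against 18.6% of all coding genes) and a distance of 2000 bp gave 15 (30.6%, against 24.4%). The whole gene with 2000 bp before it gave 11 (22.4%), below the 25.7% of all coding genes. Among the 1000 strongest summits the count fell to 3 (6.12%, against 5.11%), since the list is shorter. The number of shared summits was 8 within 500 bp and 8 head to head only, and 11 of 13 in the conservative set. The median signal was 200.0 under each alternative tried, which held the same 10 summits, and support in both replicates was 10 of 10 under each. Of the 63 other genes of the machinery, 24 had a summit (38.1%, against 18.9% of all coding genes). With the list of 1 replicate it was 15 to 17 (23.8 and 27.0%, against 14.3 and 14.9%). At an IDR of 0.001 or less it was 14 (22.2%, against 14.2%), and among the 1000 strongest summits 5 (7.94%, against 5.11%). An alternative chosen after the data had been seen, the ranked peaks at the threshold of the authors, gave 11 genes, MED15 being added. That was 22.4%, against 19.3% of all coding genes. Read depth was not given, so what a deeper library would add was not tested. No paired analysis was possible because there is 1 group.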
